A study of Mus musculus with 9 samples.

Results

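The 8 genes described here, Gas5, Snhg1, Snhg3, Snhg5, Snhg6, Snhg8, Snhg12 and Zfas1, make noncoding RNAs whose genes also carry small nucleolar RNAs (snoRNAs), in introns of the transcripts used here except in Snhg8, whose transcript is annotated as 1 exon with a retained intron that holds its snoRNA. They were taken by name from 32531 gene rows measured in mouse cerebral cortex. Of the 8, 7 were found under their own symbol and Zfas1 under its RefSeq synonym 1500012F01Rik. The data are 9 RNA sequencing libraries from untreated adult mice of 1 transgenic line, Abcb1a-TRAP ES3026 (Abcb1a-EGFP/Rpl10a), and every group carries the transgene. Abcb1a encodes a drug efflux pump of brain endothelial cells, and its regulatory sequence drives a green fluorescent version of the ribosomal protein Rpl10a, so that antibodies can pull tagged ribosomes and their RNA out of the tissue. There were 3 groups of 3 libraries: immunoprecipitates (IPs) made by investigator ES, IPs made by investigator JL, and input, the total RNA of the cortex, from JL alone. Whether the 3 libraries in each group stem from different mice is not in the labels, so p-values measure only the spread between these libraries, which may be technical.

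In a snoRNA host gene the introns release the snoRNAs, which stay in the nucleolus and guide the ribose methylation (box C/D type) or pseudouridylation (box H/ACA type) of ribosomal RNA. The joined exons are exported, hold only short open reading frames, and are known in several hosts to be taken up by ribosomes and then degraded by nonsense-mediated decay, a surveillance pathway for early stop codons. Many host genes, like ribosomal protein genes, begin transcription at a C within a stretch of pyrimidines, the 5′ terminal oligopyrimidine (TOP) sequence, which ties the translation of such RNAs to growth signals. Gas5 was named for its rise in growth-arrested cells, and its RNA can bind the glucocorticoid receptor.

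The libraries held 31987470 to 46598478 gene counts, of which the 8 hosts together took 5175 to 8633. Levels are given in CPM, counts scaled to a common library size with the TMM method, as mean ± SD of 3 libraries. Fold changes are log2 values ± standard error from edgeR's quasi-likelihood test, called at an adjusted p under 0.05 over all genes tested. The tissue label of the IPs was checked against 10 endothelial markers. Their summed level lay at 6405 to 6905 CPM in the JL IPs, 633 to 1137 in the ES IPs and 46.2 to 49.4 in the inputs, and 8 neuron markers summed to 1834 to 2337, 14782 to 16589 and 14372 to 15090 CPM. Astrocyte markers (6) summed to 231 to 345 CPM in the JL IPs, 764 to 1315 in the ES IPs and 1698 to 1868 in the inputs, and oligodendrocyte markers (6) to 263 to 387, 882 to 1061 and 1940 to 2268. Microglial markers (6) summed to 10.2 to 17.6, 28.1 to 33.2 and 55.9 to 59.7 CPM in the same order, and mural cell markers (6) to 17.6 to 35.5, 20.9 to 21.9 and 31.3 to 35.9. No marker was at 0 in all libraries of a group. The ES IPs thus had endothelial markers above the inputs and below the JL IPs, and a summed neuron level at about that of the inputs. Snap25 gave most of that sum (11456.5 ± 976 CPM in the ES IPs, 10505.5 ± 488 in the inputs). Taken singly, 4 of the 8 neuron markers were called higher in the ES IPs than in the inputs and 2 lower. Of the 6 astrocyte markers 2 were called higher and 3 lower. Over all genes tested in this comparison, 26.9% were called higher and 25.3% lower. ES IP replicate 1 stood apart from the other 2 ES IPs, and all 8 hosts had their highest ES value in it. Its endothelial marker sum was the highest of the ES IPs and its astrocyte sum the lowest. Slc2a1 gave the largest part of the endothelial sum (600, 439 and 299 CPM in ES IP replicates 1 to 3). Slc1a2 gave most of the astrocyte sum (615, 1108 and 1168 CPM). The ribosomal RNA precursor row Rn45s took 12.03% of the gene counts of ES IP replicate 1, against 8.14% and 6.04% in ES IP replicates 2 and 3. Results of the hosts with ES IPs are therefore given with and without ES IP replicate 1 where they differ. The other gene lists and the markers were compared with all ES IPs only, and their dependence on that library was not tested.

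The start sites of the hosts are shown because a TOP sequence is what links this family to ribosomal protein genes. Each line gives 25 bases before the RefSeq start and 25 from it on (GRCm38.p6, 5′ to 3′ on the transcribed strand), with the longest run of C and T that begins with C in capitals. RefSeq gave windows for 7 of the 8 genes, and 2 for Gas5.
Gas5, upstream start, chr1:161034576-161034625, + strand: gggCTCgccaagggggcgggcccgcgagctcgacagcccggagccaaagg
Gas5, downstream start, chr1:161035141-161035190, + strand: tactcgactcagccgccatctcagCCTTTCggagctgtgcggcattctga
Snhg1, chr19:8723462-8723511, + strand: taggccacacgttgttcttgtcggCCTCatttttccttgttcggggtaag
Snhg3, chr4:132353662-132353711, - strand: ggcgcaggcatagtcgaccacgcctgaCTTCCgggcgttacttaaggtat
Snhg5, chr9:88522873-88522922, - strand: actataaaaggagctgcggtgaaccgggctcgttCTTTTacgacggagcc
Snhg8, chr3:123508312-123508361, - strand: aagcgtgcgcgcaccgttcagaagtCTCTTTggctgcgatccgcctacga
Snhg12, chr4:132308653-132308702, + strand: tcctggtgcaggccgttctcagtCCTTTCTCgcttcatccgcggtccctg
Zfas1, chr2:167062909-167062958, + strand: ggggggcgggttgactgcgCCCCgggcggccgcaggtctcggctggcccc

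Runs of at least 5 such bases were present in 5 of the 8 windows, and in 53.0% of 32851 RefSeq windows of the same length, searched on the transcribed strand only. By position, in 5 of the 8 windows (the downstream start of Gas5, Snhg1, Snhg3, Snhg8 and Snhg12) a longest run of at least 4 bases began within 2 bases of the annotated start, against 6.48% of all windows. This position criterion was chosen after the sequences were seen, and a match is a description of letters only.

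The snoRNAs with rows of their own had few counts. The GENCODE M21 annotation (mm10) places snoRNAs under 9 names inside Gas5, 8 inside Snhg1, 4 inside Snhg12, 3 inside Zfas1, 2 each inside Snhg3 and Snhg5, and 1 each inside Snhg6 and Snhg8. The files have rows for 8 of these snoRNAs, and over all 8 rows the libraries held 30 to 42 counts in an input, 4 to 14 in a JL IP and 1 to 7 in an ES IP. The other annotated snoRNAs were matched to no row, so their reads were not seen separately. Snora24 lies inside the exon of the Snhg8 transcript, and its reads and those of Snhg8 cannot be told apart. To show what the introns hold, 4 of these snoRNAs follow, with the C box TGATGA, the D box CTGA or the ACA box in capitals.
Snord47, in Gas5, chr1:161038082-161038158, + strand: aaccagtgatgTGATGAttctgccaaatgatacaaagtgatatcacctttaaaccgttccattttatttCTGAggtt
Snord12, in Zfas1, chr2:167065276-167065365, + strand: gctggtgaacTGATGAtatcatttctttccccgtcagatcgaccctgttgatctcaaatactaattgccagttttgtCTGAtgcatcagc
Snord87, in Snhg6, chr1:9942463-9942549, - strand: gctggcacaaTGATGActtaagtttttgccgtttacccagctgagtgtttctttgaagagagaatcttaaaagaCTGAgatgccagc
Snora61, in Snhg12, chr4:132310240-132310369, + strand: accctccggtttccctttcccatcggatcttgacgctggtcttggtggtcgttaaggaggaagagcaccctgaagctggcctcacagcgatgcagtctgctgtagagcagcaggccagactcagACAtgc

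Snord12 had the most counts of the snoRNA rows, with 20, 13 and 8 in the inputs, 0, 12 and 0 in the JL IPs and 3, 1 and 1 in the ES IPs, beside 417 to 1191 counts for its host Zfas1. Snord47 had 0 to 6 counts in any library, beside 1563 to 4523 for Gas5. It was the only snoRNA row of Gas5. Snord12 was the 1 snoRNA row that passed the filter on low counts, in the JL comparison alone, and was not called (-1.16 ± 1.19, adjusted p = 0.396).

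Among the 8 hosts described here, Gas5 was the most abundant in total cortex RNA, and Snhg1 reached its level in the JL IPs. Per kilobase of an annotated transcript (502 bases for Gas5, 605 for Snhg1), Gas5 stood at 161.7 ± 2.55 CPM per kilobase in the inputs, followed by Zfas1 at 29.8 ± 1.62, Snhg12 at 26.8 ± 4.46 and Snhg1 at 25.9 ± 1.30. The libraries of neighbours in this order overlapped from Zfas1 to Snhg1. Snhg3 (11.96 ± 1.26) and Snhg6 (10.5 ± 0.695) overlapped each other, Snhg5 followed at 9.02 ± 0.747, and Snhg8 was last at 0.231 ± 0.0949. In the JL IPs Snhg1 stood at 138.6 ± 12.7 CPM per kilobase and Gas5 at 117.5 ± 11.7, with overlapping libraries, and both lay above Zfas1 at 22.1 ± 5.17. In the ES IPs Gas5 was highest again (163.3 ± 45.7), then Snhg1 (51.7 ± 30.5) and Zfas1 (19.7 ± 6.80). There was no overlap between the first and the second or the second and the third, and Zfas1 overlapped Snhg12, the next in order. Without ES IP replicate 1 the means were 137.0 for Gas5, 34.1 for Snhg1 and 15.9 for Zfas1. ES IP replicates 2 and 3 stood at 135.7 and 138.3 for Gas5, below the lowest input (159.1). For the counts no annotation is named in the labels, so these levels rest on transcripts chosen here.

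**Figure D1:**
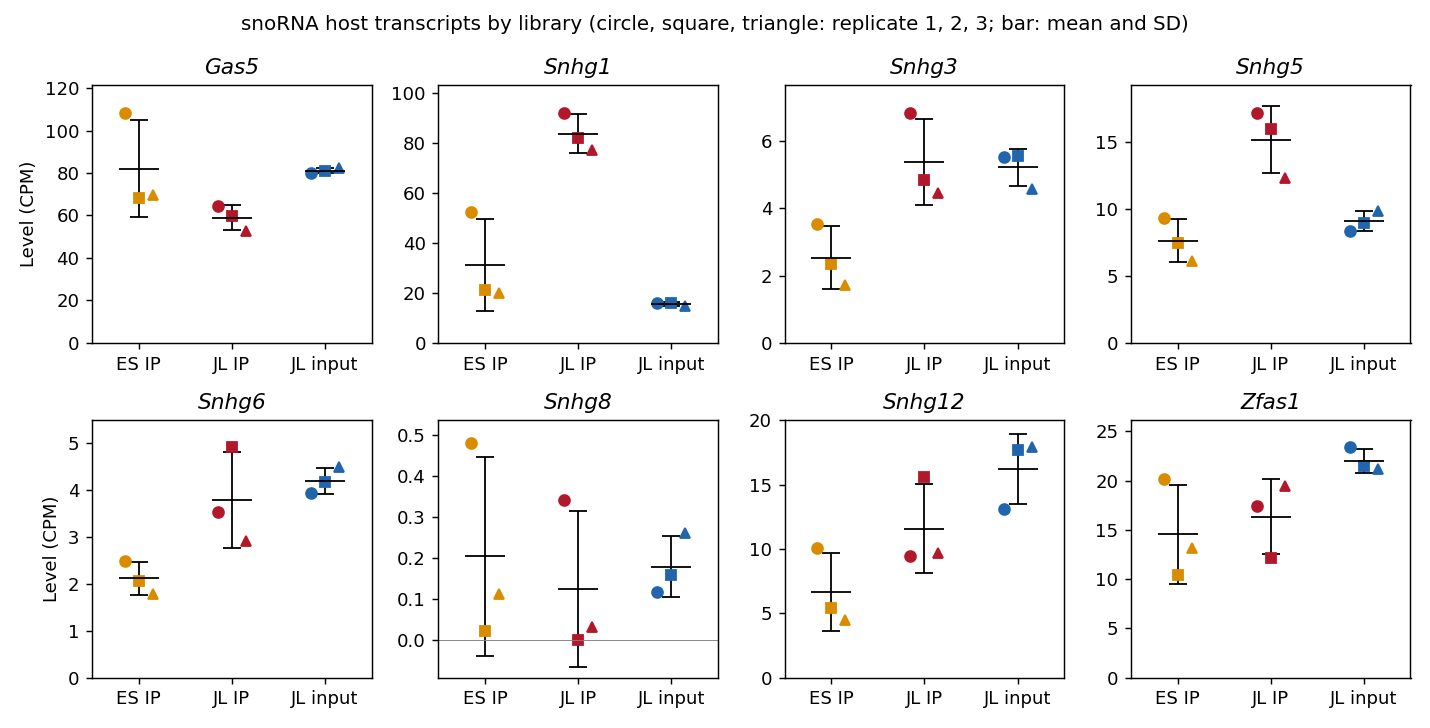
Level in CPM (vertical axis, linear, a separate scale for each gene) of the 8 host transcripts in each of the 9 libraries, by group on the horizontal axis. Points are libraries and bars the mean and SD of 3 libraries. Snhg1 spans 77.2 to 92.3 CPM over the JL IPs and 14.8 to 16.1 over the inputs, and ES IP replicate 1 is the highest ES library in every panel.

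The make-up of the family differed between fractions. Gas5 gave 52.8 ± 0.462% of the summed counts of the 8 hosts in the inputs and 30.2 ± 0.632% in the JL IPs, while Snhg1 gave 10.2 ± 0.630% and 42.9 ± 0.859%. In the ES IPs the shares were 56.7 ± 3.75% for Gas5 and 20.2 ± 4.49% for Snhg1. By replicate, 1 to 3, these were 52.4, 58.3 and 59.4% for Gas5 and 25.4, 18.0 and 17.2% for Snhg1. The number of Snhg1 counts per Gas5 count, which does not depend on the scaling of libraries, was 0.202, 0.199 and 0.179 in the inputs, 1.43, 1.37 and 1.47 in the JL IPs, and 0.484, 0.309 and 0.290 in the ES IPs. No library of one group overlapped another group in this ratio. This pair of hosts was chosen after its values were seen, so the ratio is a description. A two-sided exact permutation test of its log2 value gave p = 0.1 for each pair of groups. Groups of 3 libraries can give no lower value in this test, so it decides nothing here.

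**Figure D2:**
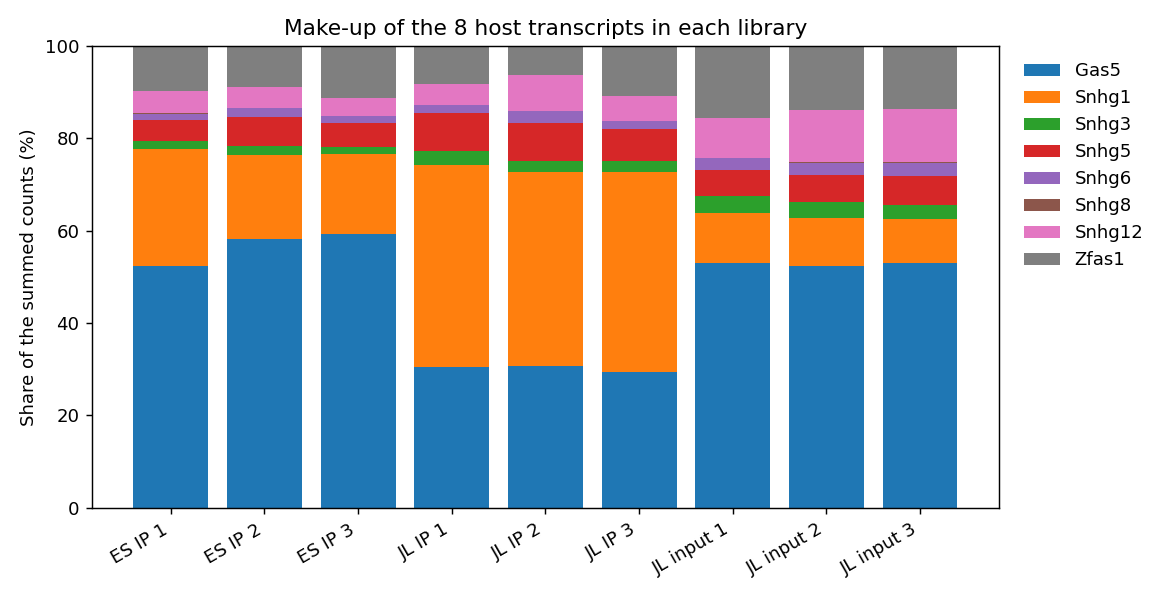
Share of each host transcript (colours) in the summed counts of the 8, in percent on the vertical axis, for each library on the horizontal axis. The Snhg1 segment takes 42.0 to 43.7% of each JL IP bar and at most 10.7% of any input bar.

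The comparison of JL IPs with JL inputs asks whether host RNAs were richer in ribosome-bound RNA of tagged cells than in total cortex RNA. Snhg1 and Snhg5 were higher in the IPs and Gas5 was lower. Among 17357 genes tested, 36.7% were called higher and 37.4% lower, so 2 higher and 1 lower of 7 tested hosts compares with 74.1% of all genes called either way. The libraries did not overlap for 4 of 7 tested hosts (Snhg1, Snhg5, Gas5 and Zfas1), and for 80.8% of all genes. Their median log2 fold change was -0.15, beside -0.09 for all genes. Rn45s took 4.83 to 5.29% of the gene counts of an input and 15.7 to 17.9% of those of a JL IP. Reads that HTSeq called ambiguous, since they fit more than 1 gene, made up 10.3 to 11.3% of each input but 2.04 to 2.13% of each JL IP. The part of either in the host values was not tested, beyond the fit without Rn45s, which kept the calls of Snhg1, Snhg5 and Gas5. In bulk RNA, more or fewer cells of a type and more or less RNA per cell cannot be told apart.

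Snhg1, host of Snord22 and other C/D snoRNAs (chromosome 19, 8723475 to 8726443, + strand, mm10), stood at 92.3, 82.0 and 77.2 CPM in the JL IPs and at 16.1, 16.1 and 14.8 CPM in the inputs. Every IP library lay far above every input. The log2 fold change was 2.42 ± 0.10, or 5.35-fold (adjusted p = 1.02e-07), and it exceeded that of 89.8% of tested genes.

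Snhg5, host of Snord50a and Snord50b (chromosome 9, 88521050 to 88522929, - strand), stood at 17.2, 16.0 and 12.3 CPM in the JL IPs and at 8.36, 8.96 and 9.85 CPM in the inputs. The groups did not overlap, though the lowest IP was closer to the inputs than to the highest IP. The log2 fold change was 0.74 ± 0.17 (adjusted p = 0.00395).

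Gas5 (chromosome 1, 161034422 to 161038539, + strand) stood at 64.4, 59.8 and 52.7 CPM in the JL IPs and at 79.9, 81.2 and 82.4 CPM in the inputs. All IP libraries lay below all inputs, which differed little among themselves. The log2 fold change was -0.46 ± 0.09 (adjusted p = 0.00171), 1.37-fold lower in the IPs.

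Zfas1, an antisense RNA that starts at the 5′ end of Znfx1 (chromosome 2, 167062934 to 167065862, + strand), stood at 17.4, 12.1 and 19.5 CPM in the JL IPs and at 23.4, 21.5 and 21.2 CPM in the inputs. Its groups did not overlap, and the difference just missed the threshold (-0.43 ± 0.18, adjusted p = 0.0536). It passed with upper quartile scaling (-0.68, adjusted p = 0.00737), and with library size alone, DESeq2, limma-voom, the replicate block, without Rn45s or without JL IP replicate 3, and the number of hosts called lower was then 2 or 3.

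Snhg12, host of 4 snoRNA loci (chromosome 4, 132308623 to 132311024, + strand), stood at 9.45, 15.6 and 9.72 CPM in the JL IPs and at 13.1, 17.7 and 17.9 CPM in the inputs. JL IP replicate 2 lay among the inputs, and the change did not pass (-0.48 ± 0.23, adjusted p = 0.0837). Without that library it passed (-0.75, adjusted p = 0.0076). Upper quartile scaling, library size alone, DESeq2 and the replicate block gave calls too.

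Snhg3, host of the H/ACA snoRNAs Snora73a and Snora73b (chromosome 4, 132348014 to 132353686, - strand), stood at 6.85, 4.84 and 4.45 CPM in the JL IPs and at 5.52, 5.57 and 4.59 CPM in the inputs. Snhg6, host of Snord87 (chromosome 1, 9941959 to 9944118, - strand), stood at 3.53, 4.90 and 2.90 CPM in the JL IPs and at 3.93, 4.17 and 4.48 CPM in the inputs. Both genes had overlapping groups, with log2 fold changes of 0.04 ± 0.24 (adjusted p = 0.875) and -0.15 ± 0.27 (adjusted p = 0.637). Their standard errors were the 2 largest of the 7 hosts tested.

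Snhg8, host of Snora24 (chromosome 3, 123507552 to 123508404, - strand), did not pass the filter on low counts in any comparison. It had 6, 8 and 12 counts in the inputs, 10, 0 and 1 in the JL IPs and 20, 1 and 5 in the ES IPs. The 0 in JL IP replicate 2 allows up to 3 counts, or 0.0870 CPM, which covers counting error only. No direction can be read from these counts.

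**Figure D3:**
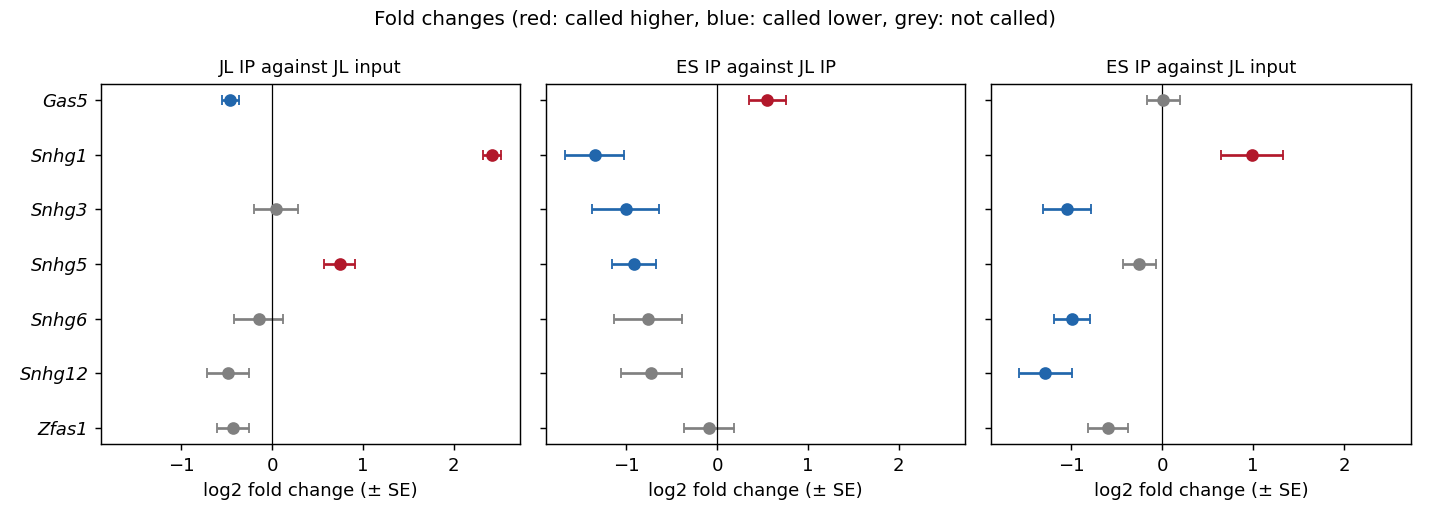
Log2 fold change with its standard error (horizontal axis) of the 7 tested host transcripts (vertical axis) in the 3 comparisons. Red points were called higher, blue points lower and grey points were not called. Snhg1 has the largest change of the hosts in the left panel, 2.42 ± 0.10, and Gas5 lies on the other side of 0 at -0.46 ± 0.09.

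The comparison of ES IPs with JL IPs sets the same fraction of the same line, handled by different investigators, side by side. It shares the JL IPs with the comparison above, so the values of these comparisons are not independent and one is no support for the other. Endothelial and neuronal markers differed between the groups as well. Of 16212 genes tested, 29.7% were called higher in the ES IPs and 28.2% lower, 57.9% in all, and of 7 tested hosts 1 was called higher and 3 lower. Gas5, Snhg1, Snhg3, Snhg5 and Snhg6, 5 of the 7, did not overlap between groups, beside 65.9% of all genes. The median of the hosts was -0.76, beside 0.03 for all genes. All 10 endothelial markers were lower in the ES IPs and all 8 neuron markers higher, with the summed levels given above, and their part in the host values was not tested.

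Snhg1 stood at 52.5, 21.1 and 20.2 CPM in the ES IPs, below every JL IP, with a log2 fold change of -1.35 ± 0.32 (adjusted p = 0.00412). ES IP replicate 1 lay between the other ES IPs and the JL IPs, and without it the value was -1.93 (adjusted p = 3.70e-06). Snhg5 stood at 9.28, 7.48 and 6.10 CPM in the ES IPs (-0.91 ± 0.24, adjusted p = 0.00746), again below every JL IP. Snhg3 stood at 3.55, 2.34 and 1.72 CPM (-1.01 ± 0.37, adjusted p = 0.0355). Its call ended without ES IP replicate 2 (adjusted p = 0.112), ES IP replicate 3 (adjusted p = 0.140) or JL IP replicate 1 (adjusted p = 0.113).

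Gas5 went the other way. It stood at 108.5, 68.1 and 69.4 CPM in the ES IPs, above every JL IP, with a log2 fold change of 0.55 ± 0.20 (adjusted p = 0.0366). This call depended on single libraries: it ended without ES IP replicate 1 (0.32, adjusted p = 0.0738) and without JL IP replicate 1 (adjusted p = 0.0594), 2 (adjusted p = 0.0888) or 3 (adjusted p = 0.122).

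Snhg6 stood at 2.49, 2.06 and 1.79 CPM in the ES IPs, below all JL IPs, and was not called (-0.76 ± 0.37, adjusted p = 0.101). Snhg12 stood at 10.1, 5.40 and 4.50 CPM (-0.72 ± 0.34, adjusted p = 0.0874) and was called lower without ES IP replicate 1 (-1.13, adjusted p = 0.00953). Both were called lower when all 9 libraries shared 1 fit (adjusted p = 0.0226 and 0.0391). Zfas1 stood at 20.1, 10.4 and 13.2 CPM and differed by less than its error (-0.09 ± 0.28, adjusted p = 0.803).

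The comparison of ES IPs with JL inputs has no input from the same investigator, so fraction and investigator cannot be told apart. It shares the inputs with the JL comparison. Snhg3, Snhg6 and Snhg12 were lower in the ES IPs and Snhg1 was higher. Of 17477 genes, 26.9% were called higher and 25.3% lower, 52.2% in all, against 1 and 3 of 7 tested hosts, whose median was -0.60 beside 0.0021 for all genes. Groups did not overlap for Snhg1, Snhg3, Snhg6, Snhg12 and Zfas1, 5 of the 7, beside 64.3% of all genes.

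Snhg12 had the largest difference, -1.29 ± 0.29 (adjusted p = 0.00659), followed by Snhg3 at -1.05 ± 0.26 (adjusted p = 0.0107) and Snhg6 at -0.99 ± 0.20 (adjusted p = 0.00354). These 3 were called lower in all 14 alternative settings run, Snhg12 at -1.06 to -1.70. Snhg1 was higher by 0.99 ± 0.34 (adjusted p = 0.0384). Without ES IP replicate 1 its value was 0.41 and still called (adjusted p = 0.0038). Its call ended without input replicate 1 (adjusted p = 0.0946), 2 (adjusted p = 0.0923) or 3 (adjusted p = 0.111), and under limma-voom (adjusted p = 0.0615), library size alone (adjusted p = 0.0612) or upper quartile scaling (adjusted p = 0.0636).

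Gas5 did not differ beyond its error (0.01 ± 0.18, adjusted p = 0.957), but without ES IP replicate 1 it was called lower (-0.22, adjusted p = 0.0192). Zfas1 (-0.60 ± 0.22, adjusted p = 0.0505) and Snhg5 (-0.25 ± 0.18, adjusted p = 0.264) were not called with all libraries and were called lower without ES IP replicate 1 (-0.89, adjusted p = 0.000219, and -0.40, adjusted p = 0.0343). Zfas1 also passed under 7 other settings, among them DESeq2 (-0.61, adjusted p = 0.0293) and limma-voom (-0.66, adjusted p = 0.0299). Without ES IP replicate 1, 6 of the 7 tested hosts were called lower and Snhg1 alone was called higher, beside 30.7% and 32.4% of 17944 genes in the same fit.

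In the group means on the log2 scale, the ES IPs lay between JL IP and input for Gas5 and Snhg1. They lay below both for Snhg3, Snhg5, Snhg6, Snhg12 and Zfas1. For Gas5 the log2 means of ES IP and input were close, at 6.32 and 6.34. Its mean CPM was higher in the ES IPs (82.0 against 81.1), so its order against the input was not settled. The order of the Snhg8 means was not read, because its counts were few. Its log2 SD between libraries was 1.46 for ES IP and 1.57 for JL IP. Over the 17801 genes that passed the filter in the 9 libraries, 54.6% had an ES IP mean between the other 2 means. Among the 7 tested hosts, the log2 SD between libraries was largest in the ES IPs for Snhg1 (0.78, against a median of 0.31 for all genes there), and in the inputs Gas5 had an SD of 0.02 beside a median of 0.10.

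Other RNAs with which the hosts share a class were set beside them for the JL comparison. Over all genes tested there, 36.7% were called higher in the JL IPs and 37.4% lower. For ES IPs against JL IPs these shares were 29.7% and 28.2%. The 8 nuclear-retained noncoding RNAs were all lower in the JL IPs, with a median of -2.93, from Neat1, the scaffold of paraspeckles (-3.96 ± 0.19), to Pvt1 (-2.22 ± 0.23). None of the 7 tested hosts reached this range. Against the JL IPs, 5 of the 8 were higher in the ES IPs and none lower (median 1.30), from Neat1 (4.81 ± 0.52) to Malat1, an RNA of nuclear speckles, which was not called (-0.70 ± 0.34, adjusted p = 0.0994). The 8 neuron markers were all lower in the JL IPs than in the inputs (median -2.57) and all higher in the ES IPs than in the JL IPs (median 2.81). Their part in the values of the nuclear-retained RNAs was not tested. The label "cytoplasmic" itself was not measured, since no nuclear fraction was sequenced.

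The other noncoding snoRNA host genes were more spread out. Of 13, 12 were tested, 3 were higher and 5 lower, with a median of -0.62. Among all genes tested, 36.7% were higher and 37.4% lower. Snhg18 rose most, with 19.1 ± 1.84 CPM in the JL IPs against 3.19 ± 0.373 in the inputs (2.59 ± 0.17). Snhg14, the long host of the imprinted Snord115 and Snord116 clusters in neurons, fell most, at 10.3 ± 0.712 against 97.9 ± 7.81 CPM (-3.25 ± 0.10). In the ES IPs against the JL IPs Snhg18 was lower (-2.06 ± 0.27) and Snhg14 higher (2.29 ± 0.27).

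Protein-coding genes that host snoRNAs were mostly higher in the JL IPs: 18 of 31 rose and 4 fell, with a median of 0.58, from the ribosomal protein gene Rps20 (1.80 ± 0.10) to the initiation factor Eif4a2 (-1.29 ± 0.06). Of 14 translation factors and related genes with TOP mRNAs, 9 were higher and 1 lower (median 0.59), from the elongation factor subunit Eef1d (1.14 ± 0.11) to the histone chaperone Nap1l1 (-0.60 ± 0.08). In the ES IPs against the JL IPs these 2 lists had medians of 0.06 and 0.08, with 3 and 2 genes higher and 4 and 1 lower. The shares of all genes called higher and lower were 36.7% and 37.4% in the JL comparison. For ES IPs against JL IPs they were 29.7% and 28.2%. Reads with several alignments were set aside by the counter, so ribosomal protein genes, which have near-identical copies, have uncertain values. Such alignments differed by group, at 1.80 to 2.05 per gene count in the JL IPs, 0.95 to 1.43 in the ES IPs and 0.61 to 0.64 in the inputs. Their part in the fold changes was not tested.

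The RNAs of proteins that act on host RNAs and snoRNAs were measured too. Among all genes, 36.7% were called higher and 37.4% lower in the JL IPs against the inputs. For ES IPs against JL IPs these shares were 29.7% and 28.2%. Of 18 proteins of snoRNA particles and their assembly, the JL IPs had 9 higher and 2 lower (median 0.43), from the H/ACA core protein Nop10 (1.57 ± 0.08) to the C/D core protein Nop56 (-0.74 ± 0.12). Of 18 factors of nonsense-mediated decay, 13 were higher and 4 lower (median 0.75), from the exon junction protein Magoh (2.46 ± 0.14) to the kinase Smg1 (-0.89 ± 0.08). In the ES IPs against the JL IPs, 1 and 4 snoRNA particle genes were higher and lower (median 0.10), led by Ruvbl1 (1.08 ± 0.20) and Nop10 (-1.28 ± 0.24), and of the decay factors 4 were higher and 4 lower (median -0.23), from Upf2 (1.20 ± 0.22) to Pnrc2 (-1.06 ± 0.24).

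In the ES IPs against the inputs, the other noncoding hosts had 1 gene higher and 6 lower (median -0.83), from Epb41l4aos (0.81 ± 0.22) to Snhg11 (-4.24 ± 0.23). The mean level of Snhg11 was 51.1 ± 14.0 CPM over the ES IPs, against 966 ± 70.1 over the inputs. Of the protein-coding hosts 12 were higher and 4 lower (median 0.41), of the TOP list 7 and 1 (median 0.60), of the snoRNA particle list 6 and 1 (median 0.42) and of the decay factors 9 and 2 (median 0.47). The nuclear-retained RNAs had 0 higher and 6 lower (median -1.29), with Malat1 lowest at -3.30 ± 0.40. Over all genes tested in this comparison, 26.9% were called higher and 25.3% lower.

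**Figure D4:**
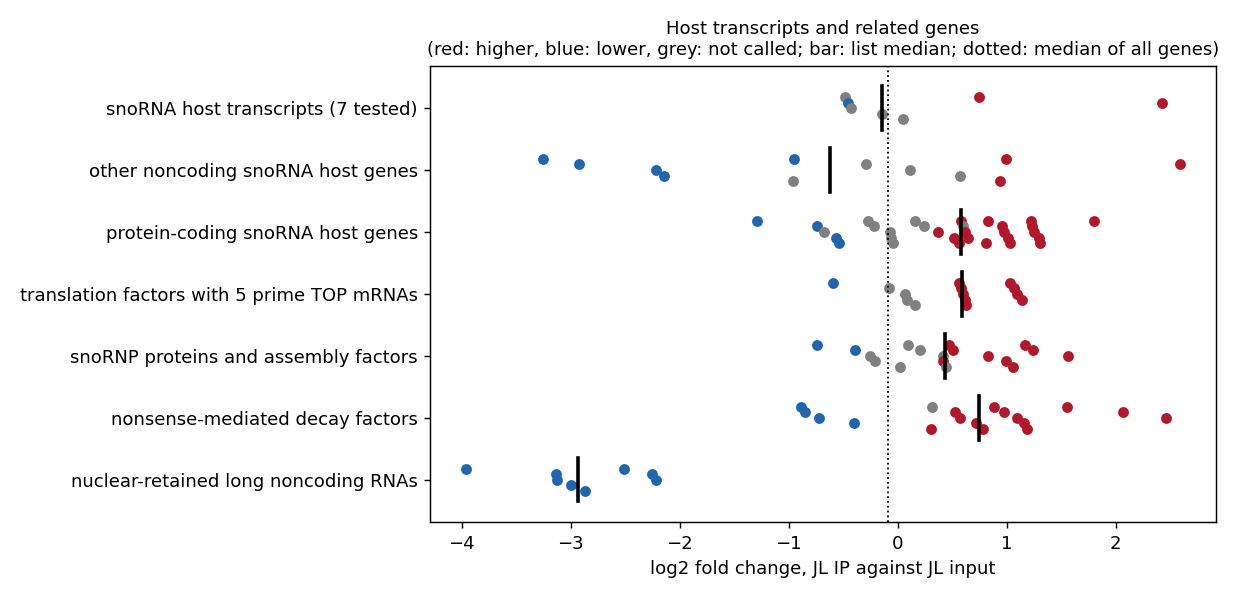
Log2 fold change of JL IP against JL input (horizontal axis) for the 7 tested host transcripts and 6 related gene lists (vertical axis). Points are genes, red where called higher, blue where called lower and grey otherwise; black bars are list medians and the dotted line the median of all genes. The nuclear-retained RNAs lie between -3.96 and -2.22 and the hosts between -0.48 and 2.42.

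Of 9 genes listed as neighbours of the hosts, 3 were higher in the JL IPs than in the inputs and 2 lower (median -0.15). Among all genes tested, 36.7% were higher and 37.4% lower. Syncrip, 1 of the 2 called lower, and Tcf24 were not among the genes found close to a host in the annotation. Mcmdc2, which overlaps Snhg6, was not in this list. Slc3a2, the heavy chain of the large neutral amino acid transporter, starts 106 bases from the start of Snhg1 on the opposite strand and shares no exon with it. Its mean was 214.8 ± 11.4 CPM over the JL IPs, against 38.1 ± 2.40 over the inputs. The log2 fold change was 2.498 ± 0.08 beside 2.42 for Snhg1, and it was lower in the ES IPs than in the JL IPs (-2.001 ± 0.17, beside -1.35 for Snhg1). Trnau1ap, a selenocysteine tRNA-associated protein, ends 739 bases from Snhg12 on the opposite strand, and was higher in the JL IPs (2.14 ± 0.17) while Snhg12, at -0.48, was not called. Znfx1 was likewise higher (1.63 ± 0.08), with Zfas1 at -0.43. Zbtb37, which overlaps the start of Gas5 on the other strand without sharing an exon, was not called (-0.29 ± 0.20, adjusted p = 0.211). Prss12, a serine protease of neurons that lies 955 bases from Snhg8, was lowest of these genes (-2.12 ± 0.26).

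Some host exons overlap those of other genes. Snhg3 shares 705 of its 986 exonic bases with the noncoding gene Gm17300 on the opposite strand and 135 with Rcc1 on the same strand. Snhg6 shares 127 of 1146 with Mcmdc2 on the opposite strand. Zfas1 shares 189 of 2929 with Gm27494 on the same strand and 82 with Znfx1 on the opposite strand. Gm17300 and Gm27494 were matched to no row here. The strand setting of the counting is not given in the sources used here. Reads in the shared stretches may not all have been assigned, and the values of these 3 hosts are uncertain.

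By the shape of their profile over the 9 libraries, the hosts were not each other's nearest genes. Likeness was the root mean square difference of log2 CPM after subtracting each gene's mean, among 17800 other genes. For Gas5 the nearest were Ap1s1, Dut and Cenpv (0.08 to 0.09), while the nearest other host, Zfas1, was at 0.37 and rank 1724. For Snhg1 they were Ndufa7, H3f3a and Chic2 (0.12 to 0.14), and the nearest host, Snhg5, was at 0.75 and rank 3287. The closest pair of hosts was Snhg12 and Snhg6, at 0.27 and rank 7 for Snhg12, whose nearest genes were Emc7, Rnpc3 and Ccdc126 (0.21 to 0.24). Emc7 was also among the 3 nearest of Snhg6, with Zkscan3 and Rbm12b1 (0.13 to 0.14). The nearest genes were Surf1, Helq and Bora for Snhg3, Exoc5, 9430016H08Rik and Mettl9 for Snhg5, and Pstk, Amn1 and 1810021B22Rik for Zfas1 (0.13 to 0.17 in all). For Snhg8, with its few counts, they were Esrp1, Dpys and Pla2g2d (0.39 to 0.47). The rank of the nearest other host was 119 for Snhg3, 151 for Snhg6, 293 for Snhg8, 676 for Zfas1 and 2398 for Snhg5.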

How the data were processed

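Ribosome-bound and total RNA of mouse cortex was sequenced in 9 libraries. Each library has a deposited table of unnormalised read counts by gene. STAR 2.0.0e, mm10 and HTSeq are named, per the submitters' processing notes, as aligner, genome build and counter; annotation, strand setting and filters: not given in the sources used here. Library sizes and tests left out the special rows of HTSeq and the row of unknown genes (0 to 3 counts). Reads without a feature came to 17.3 to 24.4% of uniquely placed reads, and ambiguous reads to 2.04 to 2.54% in the IPs and 10.3 to 11.3% in the inputs. Replicate files differed beyond sampling noise (chi-square per degree of freedom 7.00 to 216.6) and each counted as 1 replicate.

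Each comparison was fitted on its 6 libraries by edgeR 4.0.16 under R 4.3.3 (filterByExpr for low counts, TMM, estimateDisp, glmQLFit, glmQLFTest) and Benjamini-Hochberg adjustment over all genes tested. Log CPM for profile likeness used a prior count of 2. A count of 3 corresponds to 0.0589 to 0.103 CPM. The script was tested on simulated data. Positions and transcript lengths came from GENCODE M21: the transcript matched to RefSeq, or for Gas5 the best supported basic one. Start windows came from RefSeq, GRCm38.p6.

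All 8 members are described. Named genes besides were the 3 nearest profiles of each member, Snap25 and Rn45s as checks and, from each list, the largest and smallest change. The neighbour genes that are named outside this were chosen after their values were seen. Missing list symbols were looked up by RefSeq synonym. Members and lists were chosen with earlier results of these data known. Alternatives were other scalings, DESeq2 1.42.0, limma-voom 3.58.1, no filter, 1 fit of all libraries, a replicate block, Rn45s left out and each library left out.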

Additional observations from a re-analysis of the deposited data

How the results depend on the processing

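Snhg1 (2.16 to 2.49), Snhg5 (0.48 to 0.88) and Gas5 (-0.72 to -0.37) kept their calls for JL IP against JL input in all 14 alternatives. In that comparison the number of hosts called lower, 1 as reported, was 3 with upper quartile scaling, library size alone, DESeq2 and the replicate block, 2 with limma-voom and without Rn45s, and 1 to 2 with 1 library left out. Upper quartile scaling and library size alone moved the median of all genes by -0.25 and -0.26 there, and by -0.15 and -0.11 for ES IP against JL input. For ES IP against JL IP the number called lower, 3, was 5 with all 9 libraries in 1 fit and 2 to 4 with 1 library left out, and the number called higher, 1, was 0 to 1 with 1 library left out. For ES IP against JL input the number called higher, 1, was 0 with upper quartile scaling, library size alone and limma-voom and 0 to 1 with 1 library left out, and the number called lower, 3, was 3 to 6 with 1 library left out. The cause was not tested.

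Directions turned only for values that were not called with all libraries, among the hosts and settings run; Gas5 without ES IP replicate 1 was then called. For JL IP against JL input, Snhg3 was at -0.21 with upper quartile scaling, -0.22 with library size alone, -0.0053 with DESeq2, -0.16 without JL IP replicate 1 and -0.043 without input replicate 3, and Snhg6 was at 0.021 without JL IP replicate 3. With 1 library left out these ranged from -0.16 to 0.17 and from -0.38 to 0.021. Zfas1 for ES IP against JL IP was at 0.11 without ES IP replicate 2 and 0.060 without JL IP replicate 3 (range -0.38 to 0.11). Gas5 for ES IP against JL input was at -0.14 with upper quartile scaling, -0.10 with library size alone, -0.019 with limma-voom, -0.020 with the replicate block, -0.012 without input replicate 1 and -0.22 without ES IP replicate 1 (range -0.22 to 0.14). Of all 294 host values recomputed, 243 kept direction and side of the threshold.

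Same-numbered libraries deviated together weakly or not at all (correlations of -0.020 to 0.053), so the numbers were not taken as pairs. With the replicate block, Zfas1 passed for JL IP (-0.45, adjusted p = 0.0352) and ES IP (-0.65, adjusted p = 0.0186) against input and Snhg12 for JL IP against input (-0.51, adjusted p = 0.0334); hosts called lower numbered 3 for ES IP against JL IP and 4 for ES IP against JL input. In 1 of the 3 comparisons, JL IP against JL input, each library correlated best with its own number. Correlations there were 0.030 to 0.052 for the same number and -0.043 to -0.0034 for different numbers, so a weak pairing in that comparison was not settled. Per kilobase, 16 of 24 shares of the family moved beyond their SD, and with plain library sizes 5 of 24 levels did. Snhg8 could not be tested at this depth.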
